A study of Mus musculus with 16 samples.

Results

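The 30 genes described here encode the enzymes of cholesterol and fatty acid synthesis and their main regulators. They were named as a pathway, most of them known targets of the sterol regulatory element binding proteins, with no threshold on a measured value but with earlier results of these data known. They make up 30 of the 55414 genes in the count table, and all 30 had enough reads to be tested. 6 act in the mevalonate steps, 11 between squalene and cholesterol, 4 are regulators or carriers, and 9 act in fatty acid and glycerolipid synthesis. The libraries came from cultured mouse cardiac fibroblasts, the collagen-producing cells of the heart, in a study of Has2, which encodes a hyaluronan synthase.

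There were 4 groups of 4 libraries, and all 16 libraries came from fibroblasts that had been given an adenovirus. The GFP group received a GFP virus and the Cre group a Cre virus, which is meant to delete the floxed Has2 allele. The GFP_TGFB and Cre_TGFB groups received the same viruses followed by TGFB, a growth factor that turns fibroblasts into myofibroblasts. All cells were described as coming from Has2 fl/fl mice in the treatment protocol, while the genotype label of all 16 libraries names Wild Type C57BL/6J, and which of them holds was not settled by these files. Cells at P2 were serum starved for 24 h, held with virus for 5 h, and collected 48 h after fresh medium was given. The protocol quotes 20 ng/mL for bFGF and TGFB together, and whether the groups without TGFB received bFGF is not stated. No age is given for the mice. Each replicate number was taken to mark 1 preparation of cells split over all 4 groups, because its library names share a code. Preparations 1 and 4 are labelled male, 2 and 3 female. The labels do not say how many hearts went into each preparation, and p-values speak only for these preparations. The main fit takes the 16 libraries as independent, so its p-values also carry the spread between preparations. A second fit, with the preparation as a block, compares libraries within preparations.

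Cells make cholesterol from acetyl-CoA by way of mevalonate, squalene and lanosterol, and they make fatty acids from the same acetyl-CoA through acetyl-CoA carboxylase and fatty acid synthase. When sterols in the endoplasmic reticulum run low, the transcription factors encoded by Srebf1 and Srebf2 are cut free from their membrane anchor and switch on the genes of both routes, while Insig proteins hold them back when sterols are plentiful. The factor from Srebf2 mainly drives sterol genes and the short form from Srebf1 mainly drives fatty acid genes, so the transcript of either gene is not a direct reading of its activity. In fibroblasts these routes supply membrane lipid.

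The factor binding sites known for this pathway lie close to gene starts, and promoter windows were therefore read for the members (RefSeq, GRCm38.p6; 250 bases before to 50 bases after the start). Windows were found for 24 of the 30 members. The 6 others (Fdps, Sqle, Fdft1, Stard4, Scd1 and Scd2) are named only. The windows were searched on both strands for TCACNCCAC, a form of the sterol regulatory element, and for CCAAT, the letters bound by NF-Y, which cooperates with the sterol factors. These motifs share no full match, although neighbouring CCAAT matches on opposite strands can overlap. The CCAAT letters stood in the windows of 21 of 24 members (87.5%), against 41.1% of the 27025 genes in the table. The sterol element letters stood in 1 of 24 members, Hmgcs1, against 1.44% of all genes. A match is a description of letters and not of binding. The 250 bases before the start are shown for 6 members: 5 that were higher with TGFB in the GFP cells, drawn from each role, and Acss2, which was lower. Capitals mark matches to either motif (CCAAT reads ATTGG on the opposite strand).
Hmgcs1, chr13:119690101-119690350, plus strand: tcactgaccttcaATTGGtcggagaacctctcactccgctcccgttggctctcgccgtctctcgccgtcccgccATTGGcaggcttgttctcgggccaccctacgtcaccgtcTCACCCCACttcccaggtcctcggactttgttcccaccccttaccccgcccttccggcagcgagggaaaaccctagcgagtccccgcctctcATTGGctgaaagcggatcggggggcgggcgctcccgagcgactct
Cyp51, chr5:4104698-4104947, minus strand: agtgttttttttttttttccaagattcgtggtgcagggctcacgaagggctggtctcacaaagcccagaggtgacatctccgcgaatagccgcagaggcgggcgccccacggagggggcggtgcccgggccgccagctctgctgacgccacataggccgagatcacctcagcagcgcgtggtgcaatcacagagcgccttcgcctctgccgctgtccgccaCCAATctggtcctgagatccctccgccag
Msmo1, chr8:64733579-64733828, minus strand: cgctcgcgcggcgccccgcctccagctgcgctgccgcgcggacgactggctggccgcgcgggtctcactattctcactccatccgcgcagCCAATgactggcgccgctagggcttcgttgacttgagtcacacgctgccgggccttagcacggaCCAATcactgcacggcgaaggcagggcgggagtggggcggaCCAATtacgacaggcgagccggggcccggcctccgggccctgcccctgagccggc
Insig1, chr5:28071162-28071411, plus strand: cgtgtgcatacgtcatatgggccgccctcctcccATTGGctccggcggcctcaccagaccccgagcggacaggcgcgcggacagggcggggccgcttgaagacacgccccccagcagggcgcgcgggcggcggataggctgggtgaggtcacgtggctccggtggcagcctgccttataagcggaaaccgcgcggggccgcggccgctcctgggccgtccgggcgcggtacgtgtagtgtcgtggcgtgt
Fasn, chr11:120824548-120824797, minus strand: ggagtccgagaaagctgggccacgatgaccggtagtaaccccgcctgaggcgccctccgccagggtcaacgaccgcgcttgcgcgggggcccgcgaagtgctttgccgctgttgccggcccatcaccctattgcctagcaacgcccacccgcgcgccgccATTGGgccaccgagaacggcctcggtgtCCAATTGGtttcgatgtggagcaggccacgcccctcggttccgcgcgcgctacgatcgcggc
Acss2, chr2:155517793-155518042, plus strand: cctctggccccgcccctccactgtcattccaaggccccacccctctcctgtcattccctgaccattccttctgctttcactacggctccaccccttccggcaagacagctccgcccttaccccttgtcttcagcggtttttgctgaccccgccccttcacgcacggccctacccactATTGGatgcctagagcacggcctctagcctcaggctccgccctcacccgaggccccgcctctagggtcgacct
Before the start, Hmgcs1, Msmo1 and Fasn each held 3 CCAAT matches, and Cyp51, Insig1 and Acss2 each held 1. Among the members not shown, Lpin1, which was lower with TGFB, and Acaca, which was higher, held no match to either motif.

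The libraries held between 17858263 and 48748487 counts each. The first principal component (55.3% of the variance) separated the libraries with TGFB from those without, and the second (20.3%) separated preparation 4 from the other 3. Because preparation 4 stands apart in every group, counts of called members are also given without it. Has2, the target of the deletion, read 18, 15.3, 23.2 and 18.4 counts-per-million (CPM) in preparations 1 to 4 of the GFP group and 14.9, 13.5, 16.6 and 13.9 in the Cre group. With TGFB it read 15.3, 9.47, 21.9 and 20.7 CPM in GFP cells and 12.5, 11, 25 and 17.4 CPM in Cre cells. The log2 fold change of Has2, Cre against GFP, was −0.35 ± 0.26 (SE) without TGFB and −0.03 ± 0.26 with it (both adjusted p = 1, edgeR). Reads were counted over the whole gene, so these values do not show whether the floxed exon was removed.

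The members spanned a wide range of levels. Per kilobase of exon (RPKM, with exon lengths from GENCODE M21), the most abundant members of the GFP group were the desaturases Scd2 (101 ± 18.3, SD, n = 4) and Scd1 (57.9 ± 4.75), followed by Me1, a malic enzyme that supplies NADPH, at 43.7 ± 6.39. The least abundant were the isomerase Idi1 at 0.541 ± 0.247 and the sterol reductase Tm7sf2 at 0.379 ± 0.0997. On the same scale Srebf1 (22.8 ± 3.1) lay above Srebf2 (13.2 ± 2.2). The 4 highest levels were all of fatty acid genes, the last of them Acly at 29.8.

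TGFB was compared with no TGFB in the GFP cells, which shows how the lipid synthesis genes respond to the growth factor in cells without Cre. Fibroblasts given TGFB had higher levels of 12 members and lower levels of 2, while 16 did not pass the test (edgeR quasi-likelihood test, Benjamini-Hochberg adjusted p under 0.05 over 15285 genes). Of all genes tested, 29.1% were called, 13.8% as higher and 15.3% as lower. The median log2 fold change was 0.34 over the 30 members and −0.02 over all genes tested. The higher members were Hmgcs1 and Fdps of the mevalonate steps, Fdft1, Sqle, Cyp51, Msmo1 and Nsdhl of the sterol steps, Insig1, and Acaca, Fasn, Scd2 and Acly of the fatty acid steps. Acss2 and Lpin1 were lower. With the preparation as a block in the fit, 15 members were higher and 4 lower, against 22.6% and 26.5% of all genes (49.1% called). Without preparation 4 the counts were 11 higher and 3 lower, and 15 and 4 with the block. Of all 15183 genes tested in that fit with the block, 3847 were higher and 4204 lower. Leaving out preparation 1 left 4 members higher and 1 lower in the fit without the block (14 and 3 with it), and no other preparation left fewer than 9 higher. With the block and without preparation 1, 2571 of 15389 genes were higher and 3148 lower. Such counts over all genes without the block are not given here. Every member called in the fit without the block stayed called in the fit with it, whichever preparation was left out.

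**Figure D1:**
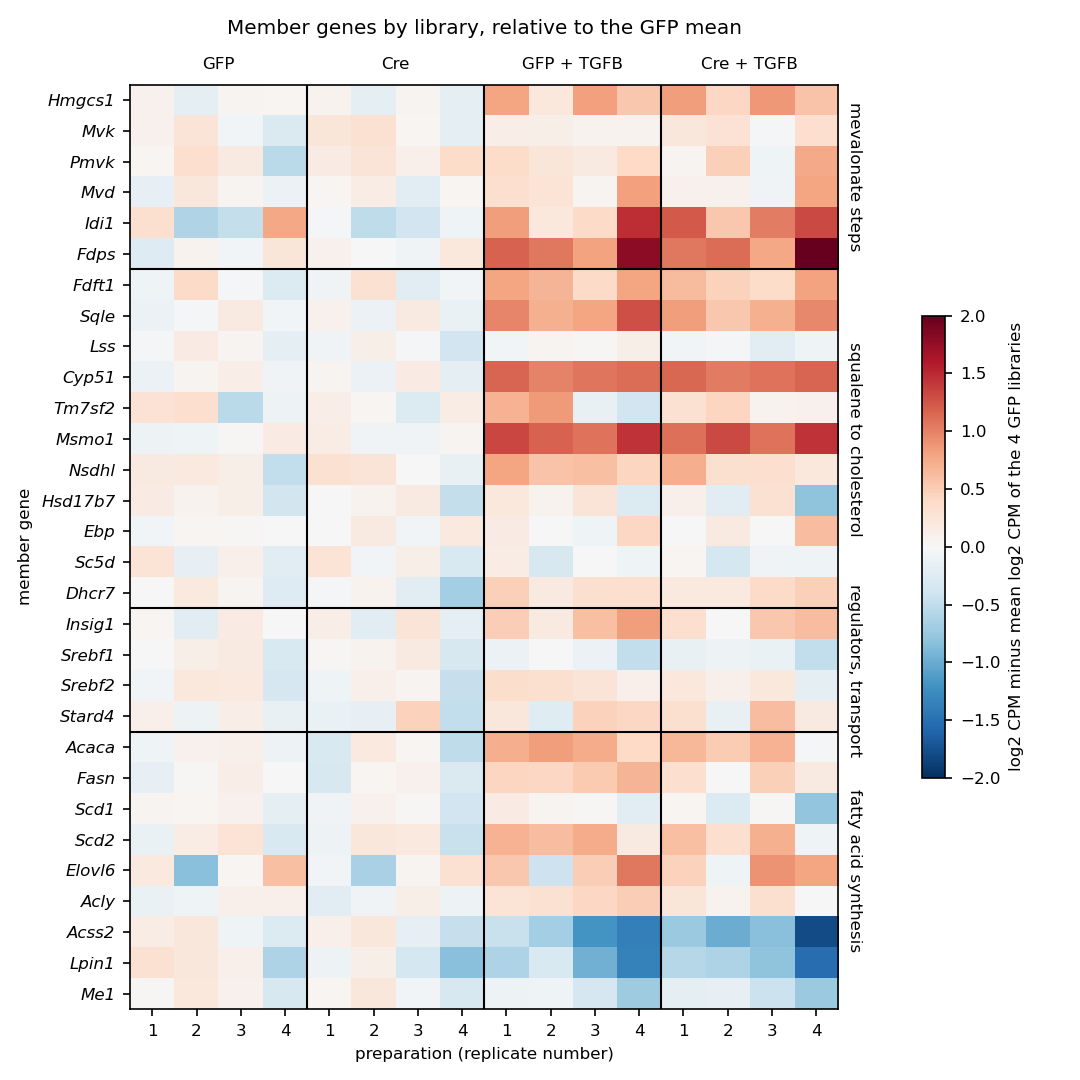
Heat map of log2 CPM of the 30 member genes (rows, by role) in the 16 libraries (columns, 4 preparations in each of 4 groups), relative to the mean of the 4 GFP libraries, with red above and blue below that mean. Cyp51, Msmo1, Sqle and Fdps are red in all 8 libraries with TGFB, Acss2 is blue in those 8, and the GFP and Cre blocks resemble each other.

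Among the sterol genes, Cyp51, Msmo1 and Sqle had the widest log2 fold changes. Cyp51, the lanosterol demethylase, read 26.5, 30, 31.7 and 27.5 CPM in preparations 1 to 4 of the GFP group and 64.6, 57.4, 60.4 and 62.3 CPM with TGFB. Every library with TGFB was above every library without it. The log2 fold change was 1.08 ± 0.09 (SE), a 2.11-fold rise, with an adjusted p of 1.09e-06. In the Cre cells Cyp51 read 29.9, 26.6, 32.4 and 25.3 CPM without and 64.3, 59.3, 61.5 and 64.4 CPM with TGFB, a log2 fold change of 1.13 ± 0.09 (adjusted p = 7.19e-07).

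Msmo1, the monooxygenase that takes methyl groups off the sterol ring after Cyp51, read 10.9, 11, 11.9 and 13.1 CPM in the GFP group and 29.4, 26.6, 24.7 and 31.8 CPM with TGFB. Its log2 fold change was 1.27 ± 0.12 (adjusted p = 1.73e-06). Cre cells read 12.9, 11.1, 11.1 and 12.2 CPM without TGFB and 25.1, 29.3, 24.9 and 31.9 CPM with it, a change of 1.23 ± 0.12 (adjusted p = 2.01e-06). Again the groups with and without TGFB did not overlap. In GFP cells these ranges overlapped for 63.3% of the members and 70.2% of all genes tested. For Cre cells the shares were 70% and 71.7%.

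Sqle, the squalene epoxidase that begins the oxygen-dependent steps, read 11.4, 12.2, 14 and 11.9 CPM in the GFP group and 24.3, 20.3, 21.4 and 30.1 CPM with TGFB. This was a log2 fold change of 0.96 ± 0.14 (adjusted p = 0.000108). The Cre cells went from 13.1, 11.4, 13.9 and 11.2 CPM to 22.1, 18, 20.2 and 24.1 CPM, a change of 0.77 ± 0.14 (adjusted p = 0.000611). With both viruses, preparation 4 had the highest Sqle level among the libraries with TGFB.

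Other sterol members moved less or did not pass. Fdft1, squalene synthase, rose by a log2 fold change of 0.65 ± 0.16 in GFP cells (adjusted p = 0.00607) and 0.58 ± 0.16 in Cre cells (adjusted p = 0.0119). Without preparation 1 these were 0.57 (adjusted p = 0.0986) and 0.53 (adjusted p = 0.114). Nsdhl, a dehydrogenase of the same demethylation as Msmo1, rose in GFP cells (0.58 ± 0.16, adjusted p = 0.0143). Without preparation 1, 2 or 3 its adjusted p was 0.0659, 0.0506 and 0.0679. In Cre cells the Nsdhl change was 0.3 ± 0.16 (adjusted p = 0.166, and 0.0174 with the block). Dhcr7, a reductase of the last step, rose in Cre cells (0.5 ± 0.15, adjusted p = 0.0204) and gave 0.32 ± 0.15 in GFP cells (adjusted p = 0.137). The Dhcr7 call in Cre cells was lost without preparation 1 (adjusted p = 0.0657) or 3 (adjusted p = 0.121), and when only the Cre libraries were fitted (0.0648). These losses were in fits without the block. With the block, Fdft1 with both viruses, Nsdhl in GFP cells and Dhcr7 in Cre cells were called whichever preparation was left out. Lss, Tm7sf2, Hsd17b7, Ebp and Sc5d, which act between these enzymes, were not called with either virus in either fit, with log2 changes from −0.13 to 0.31. The intervals for Lss ran from −0.21 to 0.28 in GFP cells and from −0.26 to 0.23 in Cre cells. Enzymes of 1 linear route were thus split between called and not called, with Lss between Sqle and Cyp51.

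In the mevalonate steps, Fdps and Hmgcs1 rose with both viruses. Fdps, farnesyl diphosphate synthase, read 17.2, 21.6, 19.7 and 24.4 CPM in the GFP group and 46.6, 42.9, 35.8 and 71.2 CPM with TGFB, a log2 fold change of 1.25 ± 0.24 (adjusted p = 0.0014). In Cre cells it went from 21.8, 20.5, 19.6 and 23.9 CPM to 42.7, 44.5, 35.3 and 81.6 CPM, also a change of 1.25 ± 0.24 (adjusted p = 0.00132). Preparation 4 was highest with TGFB in both cases, and without it Fdps was still called in both.

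Hmgcs1, which condenses acetyl groups into HMG-CoA, read 35.6, 29.7, 34.8 and 34.5 CPM in the GFP group and 58.3, 38.9, 59 and 48.8 CPM with TGFB (0.61 ± 0.14, adjusted p = 0.004). The Cre cells read 35.1, 29.7, 34.8 and 29.5 CPM without and 59.8, 44.7, 61.2 and 50.1 CPM with TGFB (0.74 ± 0.14, adjusted p = 0.00091). Preparation 2 had the lowest level with TGFB for both viruses, yet lay above all libraries without it. Without preparation 1 the adjusted p in GFP cells was 0.0504 in the fit without the block. With the block Hmgcs1 was called whichever preparation was left out.

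Idi1, the isopentenyl diphosphate isomerase, was thinly read. It stood at 2.18, 1.15, 1.26 and 2.99 CPM in the GFP group and 3.12, 2.02, 2.28 and 4.86 CPM with TGFB, so the groups overlapped although each preparation was higher with TGFB. Its log2 fold change was 0.7 ± 0.33 (adjusted p = 0.124, and 0.00535 with the block). Without the library of preparation 4 in the GFP group the change was 1 and was called. In Cre cells Idi1 rose from 1.7, 1.23, 1.34 and 1.65 CPM to 4.09, 2.56, 3.56 and 4.37 CPM (1.3 ± 0.33, adjusted p = 0.00741; 0.0684 without preparation 1). The kinases Mvk and Pmvk and the decarboxylase Mvd, which lie between Hmgcs1 and Idi1, were not called with either virus in either fit. Their log2 changes ran from 0.08 to 0.39.

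**Figure D2:**
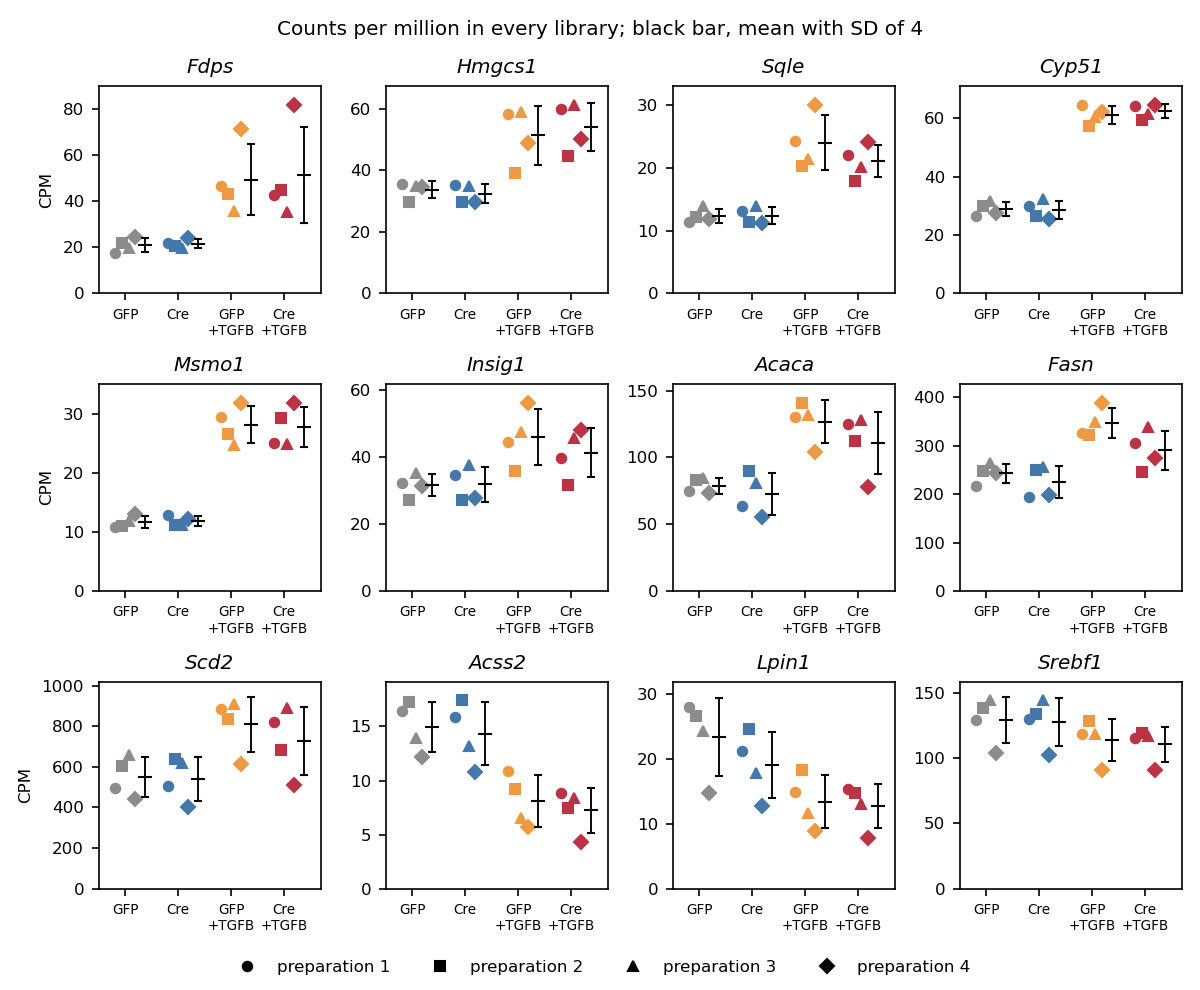
CPM (vertical axes, starting at 0) of 12 members in the 4 groups; each point is 1 library, its shape the preparation, and the black bar gives the mean and SD of 4. Cyp51 lies at 25.3 to 32.4 CPM without TGFB and 57.4 to 64.6 CPM with it, Acss2 falls, and the Srebf1 points overlap between groups.

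Among the regulators, Insig1 rose in GFP cells. The Insig1 protein retains the sterol factors in the endoplasmic reticulum, and its gene is itself one of their targets. It read 32.4, 27.3, 35.4 and 31.4 CPM in the GFP group and 44.4, 35.8, 47.6 and 56.3 CPM with TGFB, all above the group without (0.54 ± 0.16, adjusted p = 0.0192). In the fit without the block the call was lost without preparation 1 (adjusted p = 0.108), 3 (0.0552) or 4 (0.0644). It was also lost without the preparation 2 library of the GFP group (0.0602) or the preparation 4 library of the GFP_TGFB group (0.0661). With the block Insig1 was called in GFP cells whichever preparation was left out. In Cre cells it read 34.7, 27.3, 37.7 and 27.8 CPM without and 39.6, 31.8, 45.7 and 48.1 CPM with TGFB, and the ranges overlapped (0.38 ± 0.16, adjusted p = 0.0888, and 0.00698 with the block).

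The genes of the factors themselves moved little. Srebf2 read 89.9, 108, 107 and 74.4 CPM in the GFP group and 120, 117, 112 and 101 CPM with TGFB (0.25 ± 0.14, adjusted p = 0.212, and 0.00938 with the block). In Cre cells Srebf2 read 88.8, 101, 97.5 and 68.2 CPM without TGFB and 109, 101, 109 and 82 CPM with it (0.18 ± 0.14, adjusted p = 0.361, and 0.0502 with the block). The 4 preparations were all higher with TGFB, by 0.07 to 0.43 in GFP cells and by 0.01 to 0.3 in Cre cells on the log2 scale.

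Srebf1 read 129, 138, 144 and 104 CPM in the GFP group and 118, 128, 118 and 90.9 CPM with TGFB (−0.18 ± 0.14, adjusted p = 0.368, and 0.0155 with the block). The Cre cells read 130, 134, 144 and 102 CPM without and 115, 119, 117 and 90.7 CPM with TGFB (−0.21 ± 0.14, adjusted p = 0.273, and 0.00598 with the block). Every preparation was lower with TGFB, and preparation 4 was the lowest in all 4 groups. Stard4, which encodes a carrier that moves cholesterol between membranes, read 11.9, 11.6, 18 and 9.26 CPM in the Cre group and 16.2, 11.8, 19.9 and 14.7 CPM with TGFB. Neither this change (0.3 ± 0.21, adjusted p = 0.283) nor the one in GFP cells (0.23 ± 0.21, adjusted p = 0.438) passed.

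In fatty acid synthesis, the carboxylase and the synthase rose and the acetate-activating enzyme fell. Acaca, acetyl-CoA carboxylase, read 74.5, 83.1, 84.9 and 73 CPM in the GFP group and 130, 141, 132 and 104 CPM with TGFB (0.68 ± 0.17, adjusted p = 0.00658). In Cre cells it went from 63.9, 90, 80.8 and 55.3 CPM to 125, 112, 128 and 77.5 CPM (0.61 ± 0.17, adjusted p = 0.0129), where the preparation 4 library with TGFB fell within the range without it. Without preparation 1 the adjusted p was 0.0742 in GFP cells and 0.16 in Cre cells, and without preparation 3 it was 0.0727 in Cre cells. With only the Cre libraries in the fit it was 0.0511. These values are without the block. With the block Acaca was called with both viruses whichever preparation was left out.

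Fasn, fatty acid synthase, read 217, 247, 265 and 243 CPM in the GFP group and 326, 322, 350 and 389 CPM with TGFB (0.51 ± 0.12, adjusted p = 0.00554; 0.051 without preparation 1). In Cre cells it read 194, 249, 257 and 199 CPM without and 305, 245, 338 and 274 CPM with TGFB (0.37 ± 0.12, adjusted p = 0.0322). Preparation 2 of the Cre cells did not move (−0.03 on the log2 scale). The Fasn call in Cre cells was lost without preparation 1 (adjusted p = 0.231) or 3 (0.075), with only the Cre libraries fitted (0.092), and with no filter on low counts (0.0661). Leaving out single libraries also ended it: preparation 1 (0.107) or 4 (0.0739) of the Cre group, and preparation 1 (0.074) or 3 (0.0955) of the Cre_TGFB group. These values are without the block. Of the preparations left out in turn with the block, only preparation 1 ended the call (adjusted p = 0.0816).

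Acly, ATP citrate lyase, which supplies acetyl-CoA from citrate, read 143, 148, 168 and 168 CPM in the GFP group and 189, 193, 208 and 221 CPM with TGFB (0.37 ± 0.1, adjusted p = 0.0123; 0.0788 without preparation 1 and 0.0673 without preparation 2). In Cre cells its change was 0.23 ± 0.1 (adjusted p = 0.1, and 0.0206 with the block). Acss2, which makes acetyl-CoA from acetate, read 16.4, 17.3, 13.9 and 12.2 CPM in the GFP group and 10.9, 9.26, 6.49 and 5.74 CPM with TGFB (−0.89 ± 0.24, adjusted p = 0.0125). The Cre cells went from 15.9, 17.4, 13.2 and 10.8 CPM to 8.89, 7.46, 8.34 and 4.29 CPM (−0.98 ± 0.24, adjusted p = 0.00668). All libraries with TGFB were below all those without it for both viruses. Without the block, the call was lost without preparation 2 (adjusted p = 0.0756 in GFP and 0.0694 in Cre cells) and, in GFP cells, without preparation 3 (0.105). With the block, Acss2 with both viruses and Acly in GFP cells were called whichever preparation was left out. The genes for the citrate and the acetate route to acetyl-CoA thus had opposite signs.

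The desaturases differed from each other. Scd2, already the most abundant member, rose in GFP cells from 497, 604, 659 and 440 CPM to 883, 836, 911 and 613 CPM (0.56 ± 0.2, adjusted p = 0.0435, and 0.000115 with the block). Its log2 change in Cre cells was 0.43 ± 0.2 (adjusted p = 0.113, and 0.00117 with the block). Scd1 gave 0.01 ± 0.16 in GFP cells (interval −0.33 to 0.35) and −0.13 ± 0.16 in Cre cells. The Scd2 call in GFP cells without the block was lost when preparation 1, 2 or 3 was left out (adjusted p = 0.265, 0.126 and 0.0839). Single libraries also ended it: preparations 1, 2 and 4 of the GFP group (0.115, 0.0591 and 0.105), 1, 2 and 3 of GFP_TGFB (0.1, 0.0847 and 0.11), 1 and 3 of Cre (0.0555 and 0.0507), and 1 and 2 of Cre_TGFB (0.0513 and 0.0546). It was also lost with no filter on low counts (0.0573). With the block Scd2 was called whichever preparation was left out.

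Elovl6, the elongase of long-chain fatty acids, ranged from 5.9 to 16 CPM in the GFP group, with preparation 2 lowest in all 4 groups. Its log2 change was 0.42 ± 0.33 in GFP cells (adjusted p = 0.365, and 0.0101 with the block) and 0.61 ± 0.33 in Cre cells (adjusted p = 0.169, and 0.000527 with the block). Lpin1, a phosphatidate phosphatase of glycerolipid synthesis, read 27.9, 26.6, 24.2 and 14.7 CPM in the GFP group and 14.8, 18.3, 11.6 and 8.92 CPM with TGFB (−0.8 ± 0.27, adjusted p = 0.0386, and 3.6e-06 with the block). Each preparation fell, by 0.53 to 1.03 on the log2 scale, although preparation 4 without TGFB lay within the range with it. Without preparation 1, 2 or 3 the adjusted p without the block was 0.189, 0.0695 and 0.228. It was also lost without the single libraries of preparations 1, 2 and 3 of the GFP group (0.108, 0.0902 and 0.0675) or 1, 3 and 4 of GFP_TGFB (0.0601, 0.0963 and 0.107), and with no filter on low counts (0.0637). In Cre cells Lpin1 changed by −0.58 ± 0.27 (adjusted p = 0.118, and 6.77e-05 with the block). Me1 gave −0.3 ± 0.17 and −0.34 ± 0.17 (adjusted p = 0.194 and 0.13), and with the block it was called lower with both viruses (0.000831 and 0.000277).

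**Figure D3:**
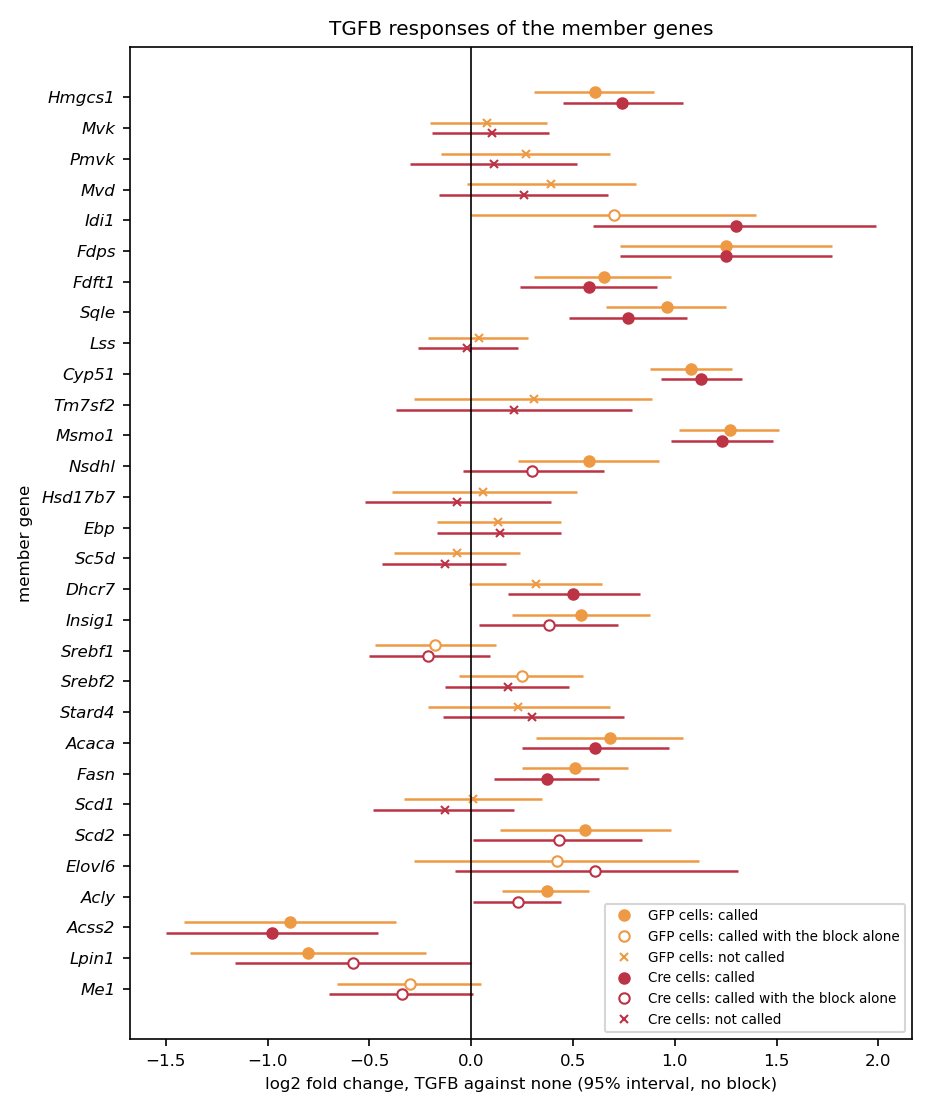
Log2 fold change with TGFB of each member (horizontal axis, dot or cross, with its 95% interval from the fit without the block) in GFP cells (orange) and Cre cells (red). Filled dots were called, open dots were called with the preparation block alone, and crosses were not called; Msmo1, Fdps and Cyp51 lie above 1 for both viruses and Acss2 near −0.9.

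The same comparison in Cre cells gave 10 members higher, 1 lower and 19 not called, where 14% of all genes were higher and 16.3% lower (30.3% called). The median log2 fold change was 0.28 over the members and 0.02 over all genes tested. Of the 12 members higher in GFP cells, 8 were also higher in Cre cells, which is 66.7% of the first list and 80% of the 10 in the second. With the block, 15 were higher and 4 lower in Cre cells, against 25.2% and 27.3% of all genes (52.5% called). 14 members were then higher with both viruses (93.3% of each list), and the 4 lower members, Acss2, Lpin1, Me1 and Srebf1, were the same. Shared calls over all genes were not counted, and whether these overlaps are particular to the members was not tested. Without preparation 4 the counts were 12 higher and 4 lower without the block, and 15 and 5 with it. Of all 15183 genes tested in that fit with the block, 4251 were higher and 4335 lower. Without preparation 1 and without the block, 5 were higher. Of the members called in Cre cells without the block, only Fasn lost its call when a preparation was left out of the fit with the block.

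Whether the TGFB response differed between Cre and GFP cells was tested directly as a difference of the responses. No member and no other gene was called by edgeR, with 0% of genes called with or without the block, and DESeq2 also called 0. At an unadjusted p under 0.05 there were 90 genes without the block and 501 with it, among them Idi1 with the block and no other member. The median difference, Cre minus GFP, was −0.07 over the members. The widest was Idi1 at 0.59 ± 0.46 (adjusted p = 1), or 0.58 ± 0.26 with the block (adjusted p = 1). The interval for Cyp51 ran from −0.23 to 0.33 and that for Msmo1 from −0.38 to 0.31.

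Cre was compared with GFP to see what the virus meant to delete Has2 did to these genes. None of the 30 members was called without TGFB, with TGFB or averaged over both media, with or without the block, and DESeq2 called none either. Of all genes, 0% were called by edgeR without the block, where 169 genes without TGFB and 268 with TGFB had an unadjusted p under 0.05 and DESeq2 called 2 and 0. With the block, 0.17% were called without TGFB, 0.0654% with TGFB and 0.785% averaged over both media. At an unadjusted p under 0.05 there were 0 members without the block, and with it 1 without TGFB, 5 with TGFB and 6 averaged over both media (Lpin1, Srebf2, Fasn, Scd1, Acly and Acaca, all lower). These are 3.33%, 16.7% and 20% of the members, against 5.77%, 13.3% and 17.4% of all genes at the same threshold. The ranges of Cre and GFP libraries overlapped for all 30 members in both media, as they did for 98.5% of all genes without TGFB and 98.4% with it. Median log2 differences over the members were −0.02 without and −0.08 with TGFB. The sterol genes that moved most with TGFB lay close to 0: averaged over both media, Cyp51 differed by 0 ± 0.07 (interval −0.14 to 0.14) and Msmo1 by 0 ± 0.08 (interval −0.17 to 0.17).

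No fatty acid gene passed the test of Cre against GFP. Averaged over both media, the difference was below 0 in all 4 preparations for 7 of the 9 fatty acid genes, 2 of the 4 regulators and carriers, 2 of 11 sterol genes and 0 of 6 mevalonate genes. In all this was 11 of 30 members (36.7%), against 17% of all genes. The 2 media differed in this count. Without TGFB it was 5 of 30 members (16.7%, against 13.3% of all genes), 1 of them a fatty acid gene. With TGFB it was 13 of 30 (43.3%, against 14.1%), 5 of them fatty acid genes. Fasn differed by −0.13, −0.19, −0.05 and −0.4 in preparations 1 to 4 and by −0.19 ± 0.07 in the fit with the block (adjusted p = 0.199). Acaca gave −0.13, −0.11, −0.06 and −0.41 (fit −0.17 ± 0.07, adjusted p = 0.225). For Acly the values were −0.07, −0.12, −0.04 and −0.35 (fit −0.14 ± 0.05, adjusted p = 0.203). Preparation 4 gave the widest difference for each of these 3 genes. Lpin1 was more even, at −0.17, −0.21, −0.14 and −0.19 (fit −0.19 ± 0.06, adjusted p = 0.169). Srebf2 gave −0.08, −0.15, −0.09 and −0.21 (fit −0.13 ± 0.05, adjusted p = 0.217).

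Gene length moved with the same comparison. Across 15259 genes, which are not independent replicates, the averaged Cre difference had a Spearman rho of −0.363 with exon length. The decile of shortest genes had a median of 0.14 and that of the longest −0.09. Fasn (−0.19), Acaca (−0.17), Lpin1 (−0.19) and Acss2 (−0.11) belong to that longest decile, as does Lss of the sterol route (−0.11). Each lay below the median of that decile. Of the other fatty acid genes, Scd1 (−0.16), Acly (−0.14) and Scd2 (−0.1) lay in decile 7, with a median of −0.03. Me1 (−0.04) lay in decile 5, with a median of 0, and Elovl6 (0) in decile 8, with a median of −0.05. The part of length in these differences was not tested.

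**Figure D4:**
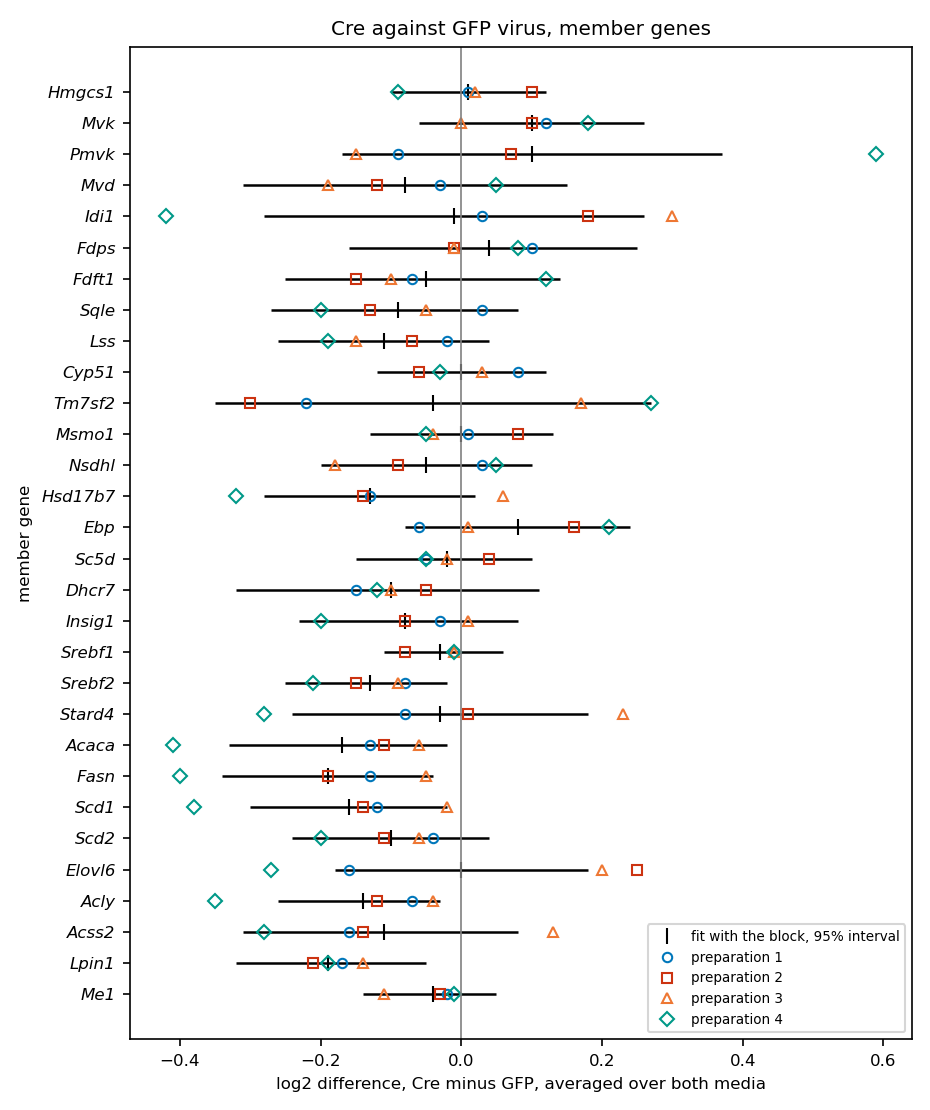
Cre minus GFP log2 difference of each member, averaged over both media (horizontal axis), with the fit with the block as a tick and its 95% interval as a line, and the 4 preparations as open symbols. Cyp51 and Msmo1 sit at 0, while Fasn, Acaca, Scd1 and Acly lie below 0 in all 4 preparations, with preparation 4 farthest out.

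Neighbouring genes of the pathway were read from 4 further lists. Of 12 other sterol synthesis genes, 3 were higher and 2 lower with TGFB in GFP cells, with a median of 0.26 (4 and 2 with the block). Of all genes, 13.8% were higher and 15.3% lower, or 22.6% and 26.5% with the block. Tmem97, a protein of the endoplasmic reticulum linked to cholesterol trafficking, rose by 0.9 ± 0.15. The electron donors Cyb5r3 and Por, which serve many oxidases besides Cyp51 and Sqle, were lower (−0.8 ± 0.12 and −0.55 ± 0.11). In Cre cells the counts were also 3 higher and 2 lower, against 14% and 16.3% of all genes.

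Of 9 genes that process the sterol factors, 1 was higher and 1 lower with each virus (3 and 3 with the block in GFP cells, 2 and 3 in Cre cells). Without the block the shares of all genes ran from 13.8% to 16.3%. With the block, 22.6% of all genes were higher and 26.5% lower in GFP cells, and 25.2% and 27.3% in Cre cells. Pgrmc1, a haem-binding protein of the same membrane, rose by 0.47 ± 0.09 in GFP cells and Insig2, the second retention protein, fell by 0.37 on the log2 scale (adjusted p = 0.0484). Insig2 thus had the sign opposite to Insig1. Scap, the escort of the sterol factors, gave −0.35 ± 0.15 and was not called (adjusted p = 0.103).

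Of 17 genes of cholesterol transport and of the liver X receptors, which sense oxysterols, 1 was higher and 5 were lower in GFP cells, with a median of −0.09. In Cre cells 0 were higher and 6 lower, against the 14% and 16.3% of all genes given above. Nr1h3, which encodes a liver X receptor, read 8.5, 6.34, 5.03 and 4.41 CPM in the GFP group and 1.39, 2.13, 1.52 and 0.987 CPM with TGFB (−2 ± 0.38, adjusted p = 0.00116). Mylip, a target of that receptor whose product degrades lipoprotein receptors, changed by −1.07 ± 0.16 (adjusted p = 0.000132). Lipa, the lysosomal acid lipase, gave −0.94 ± 0.13, and Ch25h, which makes an oxysterol, −1.07 ± 0.24. In Cre cells these 4 genes gave −2.27, −1, −1.05 and −1.1 and were all called.

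Of 21 tested genes among 23 others of fatty acid synthesis, 4 were higher and 4 lower in GFP cells (7 and 8 with the block) and 5 and 4 in Cre cells (6 and 8 with the block). The medians were 0.04 and −0.01. Without the block, 13.8% of all genes were higher and 15.3% lower in GFP cells. With the block the shares of all genes were 22.6% and 26.5%. In Cre cells the shares of all genes were 14% and 16.3%, or 25.2% and 27.3% with the block. Hsd17b12, a reductase of fatty acid elongation, rose by 0.55 ± 0.1 and Lpin3, a relative of Lpin1, by 1.1 ± 0.24. Lpin3 thus had the sign opposite to Lpin1. G6pdx, which supplies NADPH, changed by −0.51 in GFP and −0.65 in Cre cells.

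Markers of other cells moved with TGFB too. The summed level of 8 macrophage markers ranged from 708 to 1480 CPM in the GFP group and from 430 to 912 CPM with TGFB (601 to 1590 and 404 to 999 CPM in Cre cells). 3 of the 8 were called lower with each virus, and none of the 8 was at 0 in any library. Macrophages also express Nr1h3 and Lipa. In bulk RNA, fewer cells of a type and less RNA per cell cannot be told apart, and the part of macrophages in the values above was not tested. The adipocyte-defining genes Adipoq, Lep and Retn had 0 counts in all 16 libraries, and Plin1, Cidec and Cfd had at most 2. The other adipocyte markers summed to 51.2 to 134 CPM in the GFP group and 11.8 to 15.6 CPM with TGFB, most of it Lpl. The summed level of 7 endothelial markers went from 37.3 to 49.9 CPM in the GFP group to 19.2 to 29.5 CPM with TGFB, and from 35.5 to 49.2 to 19.1 to 23.7 CPM in Cre cells. These ranges did not overlap, and 3 of the 7 (Pecam1, Tek and Tie1) were called lower with each virus. The part of endothelial cells in the values above was not tested. Mural marker sums overlapped (71.4 to 159 and 67.6 to 141 CPM in GFP cells), as did those of mesothelial markers (2.82 to 5.33 and 2.68 to 3.66 CPM) and of cardiomyocyte markers (5.32 to 16.8 and 3.12 to 6.47 CPM). Of 8 fibroblast markers, 6 were lower with TGFB for each virus, while their sum, which Col1a1 and Col1a2 dominate, ranged from 13700 to 26700 CPM in the GFP group and from 15700 to 36500 CPM with TGFB. For these marker counts, the share of all genes called lower was 15.3% in GFP cells and 16.3% in Cre cells.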

How the data were processed

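RNA of 16 libraries was measured by RNA-seq. The deposited table holds whole-number read counts per Ensembl gene, made by the authors with HTSeq 0.10.0 after FastQC 0.10.1 against mm39 (GRCm39), per the submitters' processing notes. For the aligner, annotation and strandedness nothing is given in the sources used here, and reads of overlapping genes or near-identical copies could not be checked. Per the labels' protocols, RNA came from Trizol with DNase and libraries from NEBNext Ultra II. Has2 overexpression cells are not analysed here. Symbols came from GENCODE M21 (52081 of 55414 IDs, 99.9% of counts).

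Columns were matched to samples by the group and replicate number in their names. Genes were kept by filterByExpr (minimum count 10, total 15), which left 15285 (99.9% of counts), and libraries scaled by TMM (factors 0.908 to 1.12). The main fit was edgeR 4.0.16 in R 4.3.3, with 1 mean per group over all 16 libraries and a robust quasi-likelihood F test, adjusted by Benjamini-Hochberg over all genes tested. CPM values use TMM library sizes. RPKM divides CPM by the exon length of GENCODE M21, an older annotation than the files' build. Within-preparation differences are log2(CPM + 0.5). The biological coefficient of variation was 0.254, or 0.123 with the preparation as a block.

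Replicate numbers were taken to pair the samples, because library names show 1 code per number. Same-numbered libraries deviated together in all 24 pairs (correlations 0.323 to 0.838, median 0.497), while the 72 other pairs had a median of −0.13. No 2 libraries of a group agreed within sampling noise. Xist and Ddx3y counts fitted the sex label of each of the 16 libraries. The fit without the block was checked on simulated counts for TGFB in GFP cells, drawn without a shared effect of the preparation.

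The members and lists were chosen with earlier results of these data known. Every member could be named. Srebf1, Srebf2, Insig1 and up to 3 members per role and comparison with the smallest p have values in every library, and up to 4 genes of each further list are named. 1 gene that this rule would name is not reported here. Other members, such as Acss2, Lpin1 and Scd2, were given library values after they were seen. Alternatives were the block, DESeq2 1.42.0, other size factors, no filter, a 5 CPM filter, sex as a covariate, the compared libraries alone, a test against a fold of 1.5, and each library or preparation left out.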

Additional observations from a re-analysis of the deposited data

Results flagged for a closer look

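In 120 combinations of a member and a group, 3 had a library far from the other 3 by Dixon's criterion, all in preparation 4. Chance would flag about 1 in 20. Mvd in the Cre_TGFB group read 21.5 CPM against 11.9 to 13.3 in the other 3 preparations. Nsdhl in the GFP group read 9.28 CPM against 14.1 to 14.9. Srebf1 in the Cre_TGFB group read 90.7 CPM against 115 to 119. The Cre difference of Hmgcs1 was −0.02, 0, 0 and −0.22 in the 4 preparations without TGFB, below 0 in each before rounding (fit −0.06), and 0.04, 0.2, 0.05 and 0.04 with it (fit 0.07). The test of that difference gave 0.14 (adjusted p = 1, edgeR) and did not pass.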

How the results depend on the processing

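No called value changed sign under any alternative. Values near 0 that were not called did: the members' median ran from −0.08 to 0.01 for Cre against GFP without TGFB and from −0.11 to 0.01 for the difference of responses. In all settings 0 members were called in the Cre comparisons or in the difference of responses. With the replicate block, lower members went to 4 with each virus. Called genes in GFP cells went to 6 of the sterol factor processing list and 15 of the other fatty acid genes. More calls also passed among members, as given above. Without the filter there was 1 lower member in GFP cells and 1 processing gene, and with only the compared libraries 1 processing gene and 7 higher members in Cre cells. A test against a fold of 1.5 left 4 higher and 0 lower members in GFP cells and 3 and 0 in Cre cells, and 1 other sterol gene, 0 processing genes, 3 of cholesterol transport and 0 other fatty acid genes. Leaving out each library or preparation, with or without the block, gave 4 to 16 higher and 0 to 4 lower members in GFP cells, and 5 to 16 higher and 0 to 5 lower members in Cre cells. Called genes in GFP cells then ran from 4 to 8 (other sterol), 1 to 6 (processing), 4 to 12 (cholesterol transport) and 4 to 14 (other fatty acid). Shares of all genes called also changed with the setting and are not set beside the counts of this section. Cyp51, Msmo1 and Fdps were called with both viruses in all 32 settings. The cause of each change was not tested, and leaving out a library or preparation also left fewer libraries in the fit. At these levels Idi1 and Tm7sf2 rest on the fewest reads.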
